A study of Mus musculus with 60 samples.

Results

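Of 60 arrays of pancreatic islets from mice in which MYC can be switched on in beta cells, 3 carried high signal of epidermis and skeletal muscle, and they are described here against the 6 kept arrays of the same 3 groups. The 3 arrays were chosen by their measured Krt5 and Acta1 levels among the 8 arrays that the submitters left out for poor reproducibility. They are replicate 2 of MycON exenatide 16 h, replicate 3 of MycON exenatide 32 h and replicate 3 of MycON water 16 h, and they are called the skin and muscle arrays here, although their labelled tissue is pancreatic islets. Krt5 and Acta1 were at least 9.48 and 11.67 log2 units above their series medians in these 3 arrays, against at most 0.90 and 4.52 in the other 5 arrays left out.

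All 9 arrays came from male pIns-MYCERTAM mice on a CBA-C57BL/6 background, in whose beta cells the insulin promoter expresses MYC fused to the altered hormone-binding part of the oestrogen receptor. All of these mice received 4-hydroxytamoxifen (4OHT), 1 mg per day into the abdominal cavity, which activates the fusion protein (MycON). The exenatide groups also received exendin-4 (exenatide), a GLP-1 receptor agonist, at 50 µg/kg under the skin, and the water group received water, from 2 days before 4OHT, and islets were taken after 16 or 32 h. The age is 8-12 weeks in one label and 3 months in another. Islets were taken by laser capture from 15 µm frozen sections of pancreas, 6 µg of RNA were labelled per array, and the labels call the arrays of a group biological replicates without tying an array to an animal. No other tissue is named in the labels of any array.

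The epidermis is a layered epithelium. Its basal cells express keratins 5 and 14 and sit on a basement membrane, and as they move up they switch to keratins 1 and 10 and then to the proteins of the cornified envelope, the tough shell of the dead outer cells. Skeletal muscle contracts through sarcomeres of actin thin filaments and myosin thick filaments, with separate sets of genes in fast, slow and embryonic fibres, and is fuelled by creatine kinase, glycogen breakdown and mitochondria. Islet endocrine cells make insulin, glucagon and other hormones, store them in dense granules and release them when glucose or hormone receptors call for it.

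A value is the log2 deviation of a gene from its own median over the 60 arrays, so levels of different genes cannot be compared. A value near 0 in all 9 arrays may mean that a gene was off in both kinds of array or was as high in both. Values of the skin and muscle arrays are given in the order exenatide 16 h, exenatide 32 h and water 16 h, and those of the 6 kept arrays as a range with the median. A difference is the value of a skin and muscle array minus the mean of the 2 kept arrays of its group, given as the mean ± SD over the 3 arrays (n = 3). For a gene list, the value given is the median over its genes of these mean differences, and its ± is the SD of the 3 medians taken within each array, whose mean can lie apart from it. A gene was counted as higher or lower where the difference was at least 4-fold (2 log2 units) in each of the 3 arrays. Since measured values of this same contrast chose the arrays, all differences are a description and none was tested. Each gene is read by its most variable probe set over the 9 arrays, which favours large differences. Of 234 other probe sets of the list genes counted, 136 differed the same way by at least 2-fold. Precision is limited by how few arrays there are, and in RNA of mixed tissue fewer cells of a type and less RNA per cell cannot be told apart.

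Of 18193 genes measured, 1552 (8.53%) were at least 4-fold higher and 603 (3.31%) at least 4-fold lower in all 3 skin and muscle arrays than in the kept arrays of their groups, together 11.8%. Every count of list or family genes in all 3 arrays given below is to be read beside these shares. The counts over all genes were 1006 and 376 with the mean over a gene's probe sets and 507 and 222 after quantile normalization of the 9 arrays. Quantile normalization also brought the median differences of the epidermis, muscle and islet lists given below nearer to 0, at 3.17, 2.66 and -2.71. At least 16-fold differences were found for 688 higher and 227 lower genes, at least 256-fold for 90 and 28, and at least 1024-fold for 18 and 9. Within single arrays, 3202 to 3396 genes (17.6% to 18.7%) lay at least 4-fold from the kept arrays of the group (higher for 12.2%, 13.4% and 12.1% and lower for 5.43%, 5.26% and 5.66% in the exenatide 16 h, exenatide 32 h and water 16 h arrays), against 214 to 720 genes (1.18% to 3.96%) between the 2 kept arrays of a group. The 3 skin and muscle arrays all lay above all 6 kept arrays for 4000 genes (22.0%) and below them for 8035 (44.2%), and the median difference over all genes was -0.10. The SD of all values within an array was 1.48 to 1.50 in the skin and muscle arrays, 1.04 to 1.30 in the other 5 arrays left out and 0.407 to 0.559 in the 6 kept arrays. Across genes, the differences of the 3 arrays correlated with Pearson's r of 0.905, 0.899 and 0.934 (n = 18193 genes, which are not independent replicates, with other kept arrays for each of the 3).

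Of the 6 kept arrays, 2 stood apart in some of these genes. MycON exenatide 16 h replicate 1 was highest of the 6 for Acta1 (3.92), Myh1 (4.74), Ttn (3.20), Lor (3.10), Krt77 (4.07) and Krt6b (2.36), and MycON water 16 h replicate 2 held Acta1 at 2.84, Tnnc2 at 2.14 and Lor at 2.92. Without MycON exenatide 16 h replicate 1 the counts were 1562 genes higher and 599 lower, and without MycON water 16 h replicate 2 they were 1537 and 573.

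The genes highest in the skin and muscle arrays mixed both tissues. Psapl1, a prosaposin-like gene, led them at 11.72, 11.88 and 11.78 in the skin and muscle arrays, against -0.17 to 0.14 with a median of -0.011 in the kept arrays, a difference of 11.81 ± 0.09 (3592-fold). Its probe set can read several transcripts, as those of 62 of the 595 list genes described here can. Of the 20 genes with the largest differences upward, the keratins Krt15, Krt14 and Krt79, the cornified envelope genes Lor, Lce1a1, Lce1a2, Lce1c, Lce1d and Lce1f, the secreted keratinocyte genes Dmkn and Krtdap, and the annexin Anxa8 stood beside the skeletal muscle genes Tnnc2, Ckm, Acta1, Tnnt3, Atp2a1, Myl1 and Mb. Their differences ran from 11.81 for Psapl1 to 9.95 for Mb.
The 20 genes with the largest differences downward were led by the hormones Gcg, Ins2 and Iapp and the granule proteins Chga, Chgb, Scg2, Scg3 and Scg5, with differences from -12.25 for Gcg (4857-fold lower) to -8.50 for Zg16. They also held G6pc2, Slc2a2, Cltrn, Ttr, Cdhr1, Ddc, Sez6l2 and Ppy of endocrine cells, Krt8 of simple epithelium, and Cela3b, Clps and Zg16 of acinar cells.

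**Figure D1:**
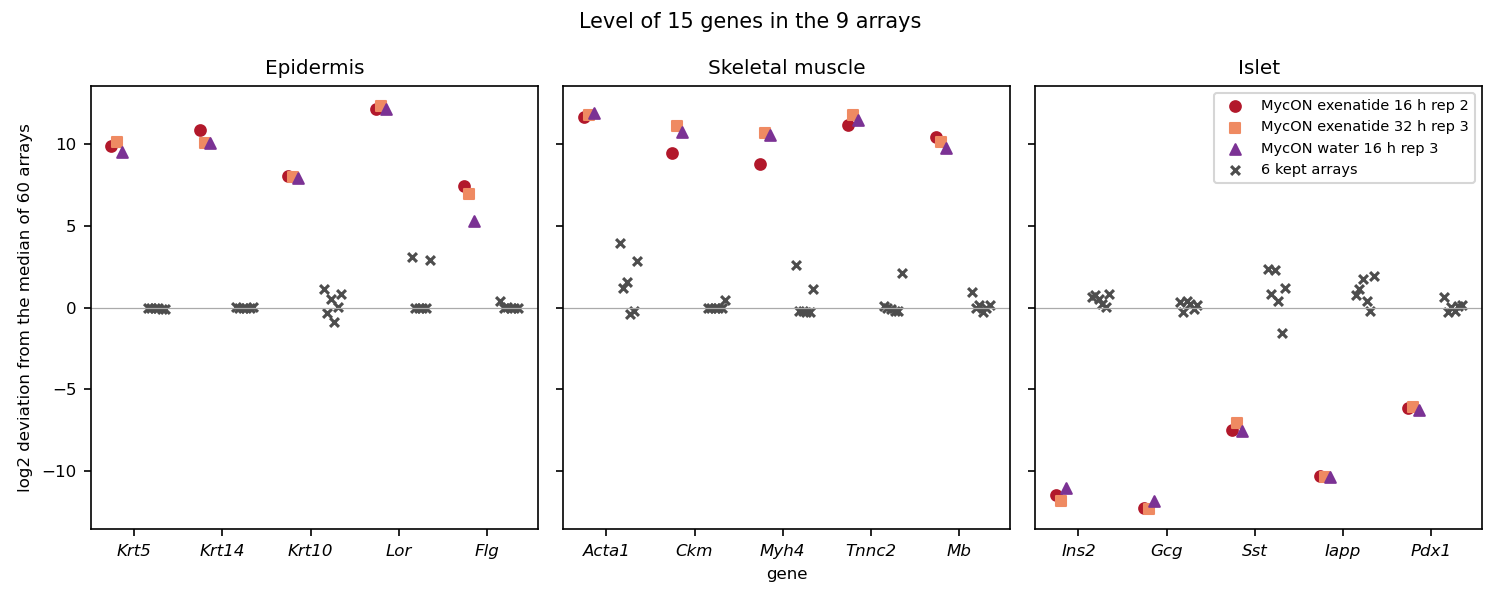
Log2 deviation from the series median (y axis) of 15 genes (x axis) in 3 panels for epidermis, skeletal muscle and islet. Coloured symbols are the 3 skin and muscle arrays and crosses the 6 kept arrays. The 3 arrays lie at 5.30 or above for all 10 epidermis and muscle genes and at -6.09 or below for all 5 islet genes. Krt5 and Acta1 were used to choose the arrays, and the genes shown were chosen after their values were seen.

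Genes of every layer of the epidermis were higher. Of 98 genes in 4 epidermal lists, 73 were at least 4-fold higher in all 3 skin and muscle arrays and 0 lower, against 8.53% and 3.31% of all genes, and their median difference was 5.82 ± 0.30 against -0.10 for all genes. In the basal layer 14 of 18 genes were higher (median difference 3.99 ± 0.04). Krt5, which pairs with Krt14 in the filaments of basal cells, was at 9.90, 10.13 and 9.48 in the skin and muscle arrays, against -0.08 to 0.0023 with a median of -0.019 in the kept arrays, a difference of 9.87 ± 0.30. Krt14 was at 10.83, 10.07 and 10.06 in the skin and muscle arrays, against -0.05 to 0.05 with a median of -0.0087 in the kept arrays, a difference of 10.32 ± 0.43. Both keratins stood about as high in each of the 3 arrays, and both lay near 0 in all 6 kept arrays. Krt15, a basal keratin strong in the hair follicle bulge, was lowest of the 3 in the exenatide 16 h array, with 10.26, 11.54 and 11.14 in the skin and muscle arrays, against -0.036 to 0.19 with a median of -0.0033 in the kept arrays (10.96 ± 0.66). Trp63, the transcription factor that maintains the basal state, was at 8.34, 8.82 and 8.06 in the skin and muscle arrays, against -0.038 to 0.03 with a median of -0.0095 in the kept arrays (8.42 ± 0.39). Col17a1, a hemidesmosome collagen (9.66 ± 0.59), Perp, a desmosome membrane protein (6.65 ± 0.54), Lamb3 and Lama3, chains of laminin-332 (5.59 ± 0.28 and 3.70 ± 0.21), and Itga6, the integrin chain that holds basal cells to it (4.06 ± 0.81), were higher too. The 4 genes not counted were Itgb4, Esrp1, Cdh1 and Cdh3. Of these, Cdh3, P-cadherin, lay at -0.16, -0.15 and -0.16 in the skin and muscle arrays, against -0.022 to 0.067 with a median of 0.014 in the kept arrays.

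Differentiation genes stood higher still, with 40 of 46 at least 4-fold higher and a median difference of 6.76 ± 0.24 (7.44, 6.96 and 7.23 as medians within the 3 arrays). Krt10, the keratin of the spinous layer, was at 8.03, 8.00 and 7.90 in the skin and muscle arrays, against -0.89 to 1.11 with a median of 0.26 in the kept arrays, a difference of 7.76 ± 0.38. Its partner Krt1 varied more, with 9.19, 6.18 and 7.21 in the skin and muscle arrays, against -0.025 to 0.016 with a median of -0.013 in the kept arrays (7.54 ± 1.52). Krt1 was thus highest in the exenatide 16 h array while Krt10 was level across the 3. Lor, loricrin, the main protein of the cornified envelope, was at 12.14, 12.31 and 12.11 in the skin and muscle arrays, against -0.035 to 3.10 with a median of -0.02 in the kept arrays, a difference of 11.20 ± 0.99. It had the largest difference of the epidermal lists, and 2 of the 6 kept arrays, at 2.92 and 3.10, stood above the other 4 for it. Flg, filaggrin, which bundles keratin in the granular layer, was at 7.40, 6.94 and 5.30 in the skin and muscle arrays, against -0.045 to 0.39 with a median of -0.019 in the kept arrays (6.50 ± 1.03). Its relatives Hrnr and Rptn had differences of 8.69 ± 0.63 and 6.76 ± 1.27, with Flg, Hrnr and Rptn all lowest in the water 16 h array. Ivl, involucrin, an early envelope protein, had a difference of 5.98 ± 0.47, and Tgm1, the transglutaminase that cross-links the envelope, one of 3.61 ± 0.04. Proteases and inhibitors that control shedding of the outer cells were higher as well, among them Klk7 (9.09 ± 0.53), Klk5 (6.62 ± 0.63), Spink5 (9.70 ± 0.38) and the filaggrin protease Asprv1 (9.73 ± 0.27). Enzymes of the lipid barrier were split: Alox12b had a difference of 5.04 ± 0.42, while Aloxe3 (2.09 ± 0.22) fell short of 4-fold in the water 16 h array. Abca12, a lipid transporter of the granular layer, lay at 0.014, 0.14 and 0.0008 in the skin and muscle arrays, against -0.025 to 0.0035 with a median of -0.013 in the kept arrays. Krt2, a keratin of the upper layers of tail, ear and paw skin in mice, was at -0.045, 0.35 and -0.055 in the skin and muscle arrays, against -0.035 to 0.075 with a median of -0.0069 in the kept arrays. Of 15 late cornified envelope genes 10 were higher, all named Lce1, but the Lce, Sprr and Dsg1 genes have near-identical copies that a probe set can share, so the part of each copy is uncertain.

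The promoter of Lor is shown because Lor had the largest difference of the epidermal lists. The window runs from 250 bases before to 50 after the start of the gene at chr3:92083093-92083392 on the minus strand, 5′ to 3′ along the gene (RefSeq, GRCm38.p6). Capitals mark an AP-1 motif, TGANTCA, and a TATA box, TATAAA.
Lor: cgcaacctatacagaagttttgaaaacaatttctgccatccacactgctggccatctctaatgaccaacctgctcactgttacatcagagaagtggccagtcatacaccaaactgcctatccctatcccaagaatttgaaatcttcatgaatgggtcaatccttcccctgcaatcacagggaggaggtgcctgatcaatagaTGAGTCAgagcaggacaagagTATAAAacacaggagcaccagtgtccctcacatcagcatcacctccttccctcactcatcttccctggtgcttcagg
Each motif was searched on both strands. TGANTCA was held by 25.8% of 66 promoters of the epidermal list genes and by 6.33% of all 14452 promoters of measured genes. TATAAA was held by 33.3% of the 66 and 9.87% of all, and AACNGGTT, a motif of Grainyhead-like factors, by 9.09% of the 66 and 1.91% of all. The marked motifs do not overlap, and a match describes these bases and not a bound site.

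Junctions of keratinocytes followed, with 13 of 17 genes higher and a median difference of 5.83 ± 0.34. Dsc1, a desmosomal cadherin of the upper layers, was at 8.63, 9.03 and 8.69 in the skin and muscle arrays, against -0.05 to 0.56 with a median of -0.0096 in the kept arrays (8.71 ± 0.35). Pkp1, plakophilin 1, which links desmosomes to keratin, was at 8.59, 8.68 and 8.32 in the skin and muscle arrays, against -0.025 to 0.052 with a median of -0.013 in the kept arrays (8.53 ± 0.21). Both were near 0 in most kept arrays and level across the 3 skin and muscle arrays. Dsp, desmoplakin, and Jup, plakoglobin, which simple epithelia also use, had smaller differences of 4.33 ± 0.31 and 3.40 ± 0.83. Cldn1, the claudin of the epidermal tight junction, had one of 7.58 ± 0.62. Gjb2, connexin 26, was uneven, at 5.87, 1.55 and 1.92 in the skin and muscle arrays, against -0.074 to -0.0057 with a median of -0.026 in the kept arrays, and Gjb6, connexin 30, at 2.84, 0.57 and 0.86, against -0.055 to 0.07 with a median of -0.015 in the kept arrays. Both connexins were highest in the exenatide 16 h array.

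Transcription factors outside the lists, looked up after the values were seen, included Klf4, needed for the skin barrier (6.28 ± 0.64), its relative Klf5 (4.61 ± 0.17), and 4 of 5 AP-2 genes. Tfap2a, an AP-2 factor of embryonic and adult epidermis, was at 5.49, 5.51 and 5.20 in the skin and muscle arrays, against -0.054 to 0.0044 with a median of -0.039 in the kept arrays (5.43 ± 0.16), and Tfap2b, Tfap2c and Tfap2e had differences of 5.09, 4.79 and 3.81. For these 4 AP-2 genes all 3 arrays lay above all 6 kept arrays, as they did for 22.0% of all genes. Of 18 clade B serpins, inhibitors of proteases found in epithelia, 10 were higher (8.53% of all genes were), led by Serpinb5 (9.42 ± 0.33) and Serpinb2 (8.48 ± 0.70). The beta-defensin Defb6 was at 7.59, 8.77 and 9.27 in the skin and muscle arrays, against -0.13 to 0.56 with a median of -0.014 in the kept arrays. Of 20 beta-defensins 2 were higher, near the 8.53% of all genes, and 18 were not counted in either direction.

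Skin appendages were uneven. Of 37 hair follicle genes 3 (8.11%, near the 8.53% of all genes) were higher, Krt79, Krt75 and Lhx2, and 0 lower. Krt79, a keratin of the follicle opening and sebaceous duct, was at 10.24, 10.30 and 10.19 in the skin and muscle arrays, against -0.032 to 0.53 with a median of -0.017 in the kept arrays (10.16 ± 0.20). Krt75, a keratin of the companion layer of the follicle, was lowest of the 3 in the exenatide 16 h array, with 2.86, 5.58 and 5.85 in the skin and muscle arrays, against -0.025 to 0.35 with a median of -0.0072 in the kept arrays (4.71 ± 1.77). The hair shaft keratins measured, Krt31, Krt33a, Krt33b, Krt34, Krt35, Krt81 and Krt86, lay between -0.18 and -0.019 in the skin and muscle arrays, and 0 of 38 keratin-associated proteins, the matrix of the hair shaft, were higher. Sebaceous gland genes stood high, 6 of 7, with a median difference of 5.81 ± 0.72. Far2, which makes the fatty alcohols of wax esters, was at 8.65, 8.49 and 8.93 in the skin and muscle arrays, against -0.033 to 0.079 with a median of -0.017 in the kept arrays (8.69 ± 0.22), and Scd3, a desaturase of sebocytes, had a difference of 7.20 ± 0.41. Of 10 melanocyte genes, too few to set against the 8.53% and 3.31% of all genes, 1 was higher, Mitf (3.42 ± 0.34), and 1 lower, Dct (-2.74 ± 0.61), while Tyr lay at -0.29, -0.37 and -0.37 and Pmel at -0.082, 0.09 and 0.51 in the skin and muscle arrays, against -0.061 to 0.063 and -0.053 to -0.0017 in the kept arrays. Keratins of mouth and oesophagus were near 0: Krt4 was at 0.092, -0.052 and -0.059 and Krt13 at -0.12, -0.16 and -0.11 in the skin and muscle arrays, against -0.056 to 0.0072 and -0.023 to 0.017 in the kept arrays. Of 8 genes in that list, Gm94 (7.24 ± 0.20) and Krt78 (6.27 ± 0.42) were higher.

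Some keratins of simple epithelia ran the other way. Of 8 genes of simple epithelium and duct, 3 were lower, the keratins Krt8, Krt7 and Krt18, 1 was higher and 4 were neither. The median difference of that list was -0.44 ± 0.08, and Krt19, a keratin of the same list, was not counted as lower. Krt8, the keratin of glandular cells, was at -8.60, -8.91 and -8.42 in the skin and muscle arrays, against -0.52 to 1.13 with a median of 0.25 in the kept arrays (-8.92 ± 0.37). Krt7 (-6.47 ± 0.33), of ducts, and Krt18 (-3.98 ± 0.42), the partner of Krt8, were lower too. For both, all 3 arrays lay below all 6 kept arrays, as they did for 44.2% of all genes. Over all 48 keratins measured, 14 were higher and 3 lower, against 8.53% and 3.31% of all genes.

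Genes of dermis and fat were higher too. Of 23 fibroblast and matrix genes 22 were higher (median difference 5.47 ± 0.38), and Fmod fell short of 4-fold only in the exenatide 32 h array (0.76). Fmod was at 3.31, 3.03 and 3.41 in the skin and muscle arrays, and at 2.76 and 1.77 in the 2 kept exenatide 32 h arrays. Col1a1, a chain of type I collagen, was at 7.12, 7.05 and 6.95 in the skin and muscle arrays, against -1.21 to 2.31 with a median of -0.23 in the kept arrays, a difference of 7.06 ± 0.74. It was level across the 3 skin and muscle arrays and spread over more than 3 log2 units in the kept arrays. Pi16, a marker of a fibroblast type found in many tissues, was at 5.35, 5.39 and 5.43 in the skin and muscle arrays, against -0.037 to 0.023 with a median of -0.021 in the kept arrays (5.41 ± 0.05), and Col3a1 (6.80 ± 1.36), Dcn (5.86 ± 0.67) and Postn (5.58 ± 0.86) were higher as well. Of 13 adipocyte genes 8 were higher (median difference 4.20 ± 0.85), and 7 of these 8 were lowest of the 3 in the exenatide 16 h array. Adipoq, adiponectin, was at 7.86, 8.97 and 9.74 in the skin and muscle arrays, against -0.037 to 0.015 with a median of -0.017 in the kept arrays (8.87 ± 0.96). Plin4, a lipid droplet coat protein, was at 3.72, 6.96 and 7.06 in the skin and muscle arrays, against -0.018 to 0.18 with a median of -0.013 in the kept arrays (5.87 ± 1.94), and Lep, leptin, at 0.82, 4.86 and 4.37, against -0.023 to 0.015 with a median of -0.0064 in the kept arrays (3.36 ± 2.21). Leptin thus stood more than 4 log2 units above the kept arrays in 2 of the 3 arrays and under 1 in the exenatide 16 h array.
Nerve and blood cells gave a mixed picture. In the Schwann cell list Mbp (5.36 ± 1.15) and Pmp22 (4.20 ± 0.39), which myelin holds, were higher and 3 of 5 genes were not. Cd207, langerin of the Langerhans cells of the epidermis, was at 2.25, 4.11 and 4.39 in the skin and muscle arrays, against -0.03 to 0.012 with a median of -0.014 in the kept arrays (3.59 ± 1.17). The mast cell proteases Cpa3 (4.44 ± 0.76) and Cma1 (3.59 ± 1.03) were higher, while Mcpt4, also of connective tissue mast cells, lay at -0.057, -0.097 and -0.02, against -0.025 to 0.049 in the kept arrays. Of 13 macrophage genes, 4 (30.8%) were higher, among them Mrc1, the mannose receptor (5.36 ± 0.72). Of 19 lymphocyte genes 2 were higher (10.5%, near the 8.53% of all genes), Ighm (4.94 ± 1.62) and Ptprc (2.62 ± 0.23). Cd3e of T cells and Cd79a and Ms4a1 of B cells lay below 0 in all 3 skin and muscle arrays. Of 14 endothelial genes 1 was higher, Vwf (3.02 ± 0.89), and 1 lower, Flt1 (-2.87 ± 0.11), 7.14% each against 8.53% and 3.31% of all genes.

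**Figure D2:**
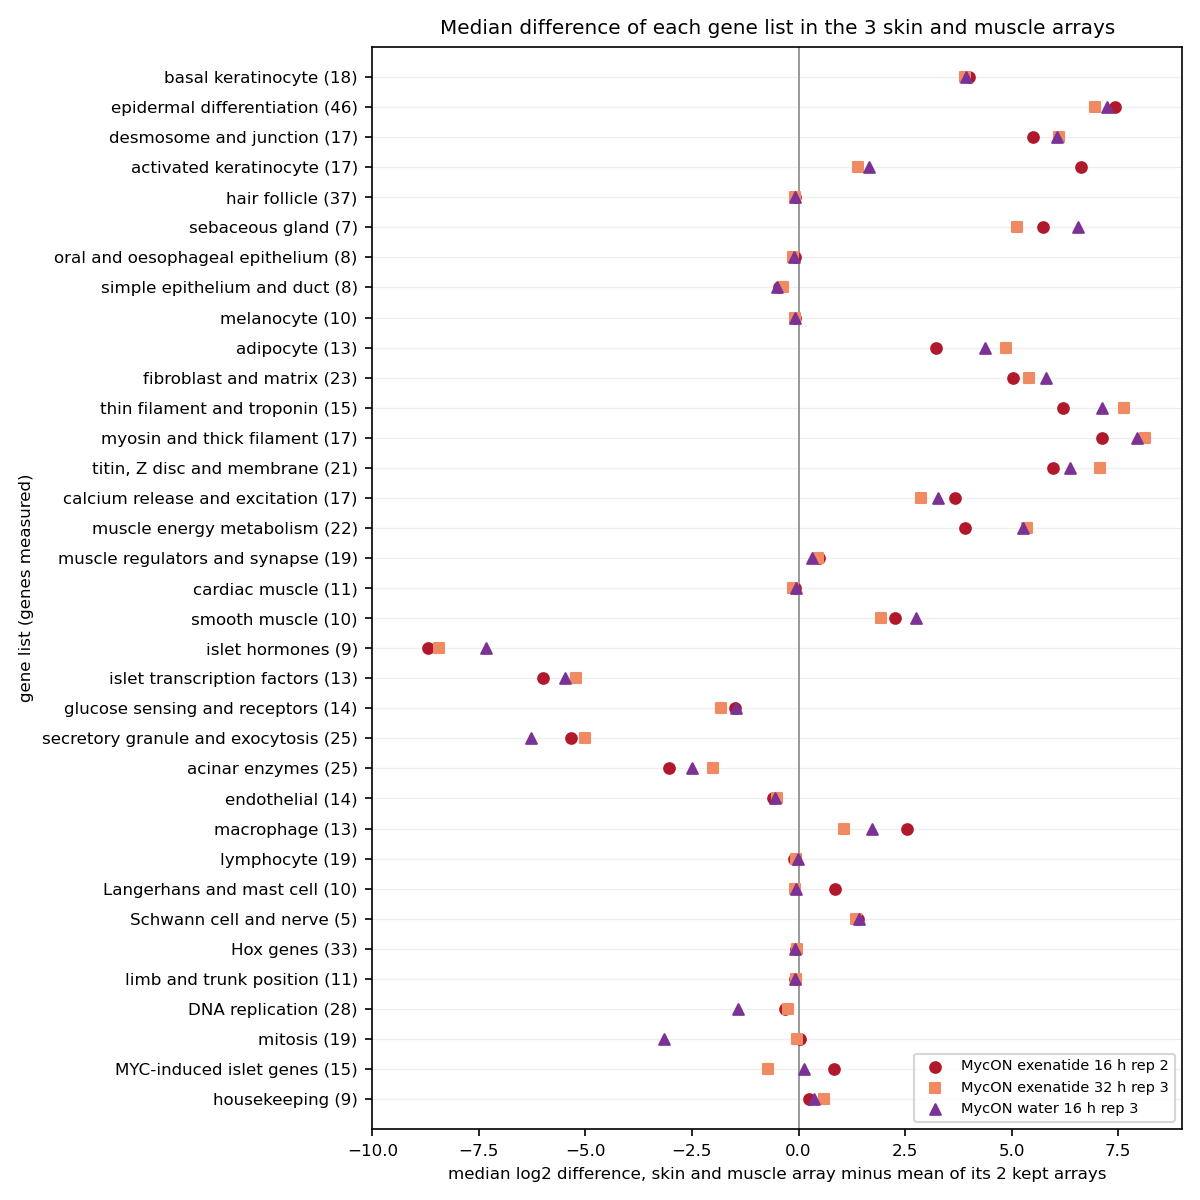
Median log2 difference from the kept arrays of the group (x axis) for 35 gene lists (y axis, number of genes measured in brackets), with 1 symbol for each of the 3 skin and muscle arrays. Basal, differentiation and junction lists of epidermis, the matrix list and the 6 skeletal muscle lists lie right of 0 and islet lists left of it in all 3 arrays, while the activated keratinocyte list (6.63 against 1.40 and 1.65) and the mitosis list differ among the arrays.

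Most skeletal muscle genes were higher too. Of 111 genes in 6 muscle lists, 72 were at least 4-fold higher in all 3 skin and muscle arrays and 0 lower (background 8.53% and 3.31%), with a median difference of 4.41 ± 0.24. Thin filament genes counted 11 of 15 (median difference 7.24 ± 0.72). Acta1, skeletal muscle alpha-actin, was at 11.67, 11.78 and 11.90 in the skin and muscle arrays, against -0.38 to 3.92 with a median of 1.37 in the kept arrays, a difference of 10.30 ± 1.07. Acta1 was used to choose the 3 arrays, so its height in them is no finding, and 1 kept array reached 3.92. Tnnc2, the fast troponin C that binds calcium, was at 11.16, 11.77 and 11.45 in the skin and muscle arrays, against -0.19 to 2.14 with a median of -0.035 in the kept arrays (11.16 ± 0.71). Its fast partners Tnnt3 (10.15 ± 0.42) and Tnni2 (9.58 ± 0.78) and the filament ruler Neb, nebulin (8.37 ± 0.66), were higher in all 3 arrays.

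Thick filament genes counted 10 of 17 (median difference 7.51 ± 0.54). The median was 3.24 with probe sets chosen by their spread over the 60 arrays and 5.43 with the mean over probe sets. Myh4, the myosin of the fastest (IIb) fibres, was at 8.76, 10.66 and 10.55 in the skin and muscle arrays, against -0.24 to 2.58 with a median of -0.20 in the kept arrays (9.52 ± 1.73). Myh2, the myosin of IIa fibres, was at 10.21, 9.84 and 9.30 in the skin and muscle arrays, against -0.04 to 0.11 with a median of -0.017 in the kept arrays (9.77 ± 0.42). Myh1, of IIx fibres, was at 10.26, 10.56 and 10.42 in the skin and muscle arrays, against -1.36 to 4.74 with a median of 0.069 in the kept arrays (9.64 ± 2.21). Myh4 was lowest of the 3 in the exenatide 16 h array, where Myh2 was highest. Myh7, the slow myosin, was at -0.071, -0.11 and -0.15 in the skin and muscle arrays, against -0.026 to 0.02 with a median of -0.011 in the kept arrays, and the slow light chains Myl2 and Myl3 were at -0.066, -0.10 and -0.11 and at -0.83, -0.36 and -0.45, against -0.024 to 0.011 and -0.069 to 0.50 in the kept arrays. None of these 3 slow genes stood above the highest kept array in any of the 3 skin and muscle arrays. Myosin heavy chain genes are close copies of each other, so a probe set can read more than 1 of them.

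Z disc, titin and membrane genes counted 20 of 21 (median difference 6.32 ± 0.56), all but Dysf. Ttn, titin, the spring that runs from Z disc to M line, was at 8.78, 10.39 and 10.17 in the skin and muscle arrays, against -0.45 to 3.20 with a median of -0.13 in the kept arrays (9.25 ± 1.72). Actn3, the Z disc actinin of fast fibres, had a difference of 8.38 ± 0.42, Des, the muscle intermediate filament desmin, one of 5.04 ± 0.65, and Dmd, dystrophin, one of 2.41 ± 0.36. Of 17 genes of calcium release and excitation 9 were higher, and 12 without the exenatide 16 h array. Atp2a1, the calcium pump of fast fibres, was at 9.96, 9.92 and 10.62 in the skin and muscle arrays, against -0.01 to 0.14 with a median of 0.0072 in the kept arrays (10.14 ± 0.35). Ryr1, the calcium release channel, had a difference of 7.53 ± 0.73, Casq1, the fast calcium store protein, one of 7.81 ± 0.82, and Pvalb, the calcium buffer parvalbumin of fast fibres, one of 8.15 ± 0.70.

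Energy genes counted 17 of 22 (20 without the exenatide 16 h array), with a median difference of 4.94 ± 0.82. Ckm, muscle creatine kinase, was at 9.45, 11.11 and 10.70 in the skin and muscle arrays, against -0.038 to 0.46 with a median of -0.016 in the kept arrays (10.36 ± 0.84). Mb, myoglobin, which stores oxygen, was at 10.42, 10.14 and 9.74 in the skin and muscle arrays, against -0.26 to 0.98 with a median of 0.047 in the kept arrays (9.95 ± 0.25). Ckm was lowest of the 3 in the exenatide 16 h array and Mb highest there. Fbp2, the muscle fructose bisphosphatase, was at 0.63, 4.65 and 3.49 in the skin and muscle arrays, against -0.074 to 0.21 with a median of -0.044 in the kept arrays (2.92 ± 2.03), and fell short of 4-fold only in the exenatide 16 h array. Pygm, muscle glycogen phosphorylase (7.27 ± 1.04), and Slc2a4, the insulin-regulated glucose transporter (3.48 ± 0.78), were higher in all 3 arrays.

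Muscle forms of some enzymes parted from their relatives and those of others did not. These pairs were looked up after the values were seen. Ckm stood at a difference of 10.36 ± 0.84 and Ckb, the brain form, at -1.73 ± 0.85, while the mitochondrial form Ckmt1 stood at 1.79 ± 0.13. Eno3, the muscle enolase, stood at 8.50 ± 1.52 and Eno2, the enolase of neurons and endocrine cells, at -0.86 ± 0.35. Pgam2 stood at 8.83 ± 0.71 and Pgam1 at -1.31 ± 0.53, the muscle and the general form of a glycolysis enzyme. In cytochrome oxidase, the muscle forms Cox6a2 (4.79 ± 1.00) and Cox8b (4.14 ± 1.50) were higher, while Cox8a (-2.63 ± 0.47), the general form, was lower and Cox6a1 (-1.78 ± 0.11) did not reach 4-fold. The calcium pumps split 3 ways, with Atp2a1 at 10.14 ± 0.35, Atp2a2, of most tissues, at -2.15 ± 0.20, and Atp2a3, which beta cells express, at -4.85 ± 0.14. Rpl3l, a muscle form of a ribosomal protein, was at 5.12, 6.80 and 6.56 in the skin and muscle arrays, against -0.032 to 0.048 with a median of -0.0051 in the kept arrays (6.16 ± 0.91), while 51 of 54 cytosolic ribosomal protein genes were not counted in either direction. In some other families the relatives were higher as well. Beside Pygm, the other phosphorylases Pygl (4.02 ± 0.70) and Pygb (3.56 ± 0.85) were. Of lactate dehydrogenase, both Ldha (5.79 ± 0.62) and Ldhb (4.19 ± 0.47) were, and of hexokinase both Hk2 (6.07 ± 0.13) and Hk1 (2.63 ± 0.52). The glucose transporters split, with Slc2a4 (3.48 ± 0.78) and Slc2a1 (2.85 ± 0.56) higher and Slc2a2 (-9.10 ± 0.34) lower. Of phosphofructokinase, Pfkm (3.82 ± 1.02) was higher, Pfkp (2.44 ± 0.57) fell short of 4-fold in the water 16 h array, and Pfkl stood at -0.61 ± 0.62.

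Of 19 muscle regulators, 5 (26.3%) were higher, against 8.53% of all genes and 52.9% to 95.2% in the other muscle lists. Their median difference was 0.79 (0.49, 0.45 and 0.31 as medians within the 3 arrays). The median was 0.43 without the exenatide 16 h array and 0.30 with probe sets chosen by their spread over the 60 arrays. Myf6, the myogenic factor of adult fibres, was at 3.82, 4.09 and 4.35 in the skin and muscle arrays, against -0.026 to 0.015 with a median of -0.018 in the kept arrays (4.10 ± 0.28). Smyd1, needed for sarcomere assembly, had a difference of 4.85 ± 0.13, and Mef2c, a factor of muscle gene activation, one of 4.12 ± 0.39. The satellite cell factor Pax7 was at -0.062, -0.086 and -0.061 in the skin and muscle arrays, against -0.033 to 0.015 with a median of -0.0092 in the kept arrays, and Myf5 at -0.25, -0.28 and 1.20, against -0.062 to 0.34 with a median of -0.013 in the kept arrays. Neither was counted as higher.
Heart and smooth muscle were checked beside skeletal muscle. Of 11 cardiac genes 0 were higher in all 3 arrays: Myh6 was at -0.40, -0.49 and -0.50 and Nppa at -0.39, -0.38 and -0.48 in the skin and muscle arrays, against -0.13 to 0.34 and -0.022 to 0.014 in the kept arrays. Of 10 smooth muscle genes 4 were higher, Synpo2, Synm, Smtn and Actg2, with Synpo2 and Synm also present in skeletal muscle, and Myh11, the smooth muscle myosin, was at 2.22, 1.32 and 0.45 in the skin and muscle arrays, against -0.22 to 0.33 with a median of -0.064 in the kept arrays.

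The promoters of 2 sarcomeric actins are shown because the actins differed among the 3 arrays. Acta1 was high in all 3, while Actc1, the alpha-actin of heart and of immature skeletal muscle, was at 7.73, 0.50 and 1.95 in the skin and muscle arrays, against -0.057 to 1.16 with a median of -0.035 in the kept arrays. The windows are chr8:123894726-123895025 for Acta1 and chr2:114052826-114053125 for Actc1, both on the minus strand and written along the gene (RefSeq, GRCm38.p6). Capitals mark the CArG box, the site class of serum response factor, and E-boxes, CANNTG, the site class of myogenic factors.
Acta1: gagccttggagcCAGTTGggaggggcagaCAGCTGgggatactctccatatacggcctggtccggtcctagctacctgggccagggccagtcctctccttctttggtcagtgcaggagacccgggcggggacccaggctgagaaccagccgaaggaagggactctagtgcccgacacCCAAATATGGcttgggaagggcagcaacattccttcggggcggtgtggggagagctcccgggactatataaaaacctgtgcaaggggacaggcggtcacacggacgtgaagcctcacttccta
Actc1: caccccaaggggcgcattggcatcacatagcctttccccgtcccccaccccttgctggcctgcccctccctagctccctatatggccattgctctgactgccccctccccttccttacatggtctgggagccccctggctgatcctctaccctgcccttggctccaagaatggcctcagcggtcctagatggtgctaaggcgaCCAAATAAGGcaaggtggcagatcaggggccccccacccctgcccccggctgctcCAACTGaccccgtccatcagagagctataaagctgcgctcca
Each window held 1 CArG box, and Acta1 held 2 E-boxes and Actc1 1. The CArG box was held by 8.33% of 84 promoters of the muscle list genes and by 1.36% of all promoters, and the MEF2 box by 7.14% and 0.491%. E-boxes were held by 83.3% of the 84 and 67.0% of all. The marked motifs do not overlap.

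**Figure D3:**
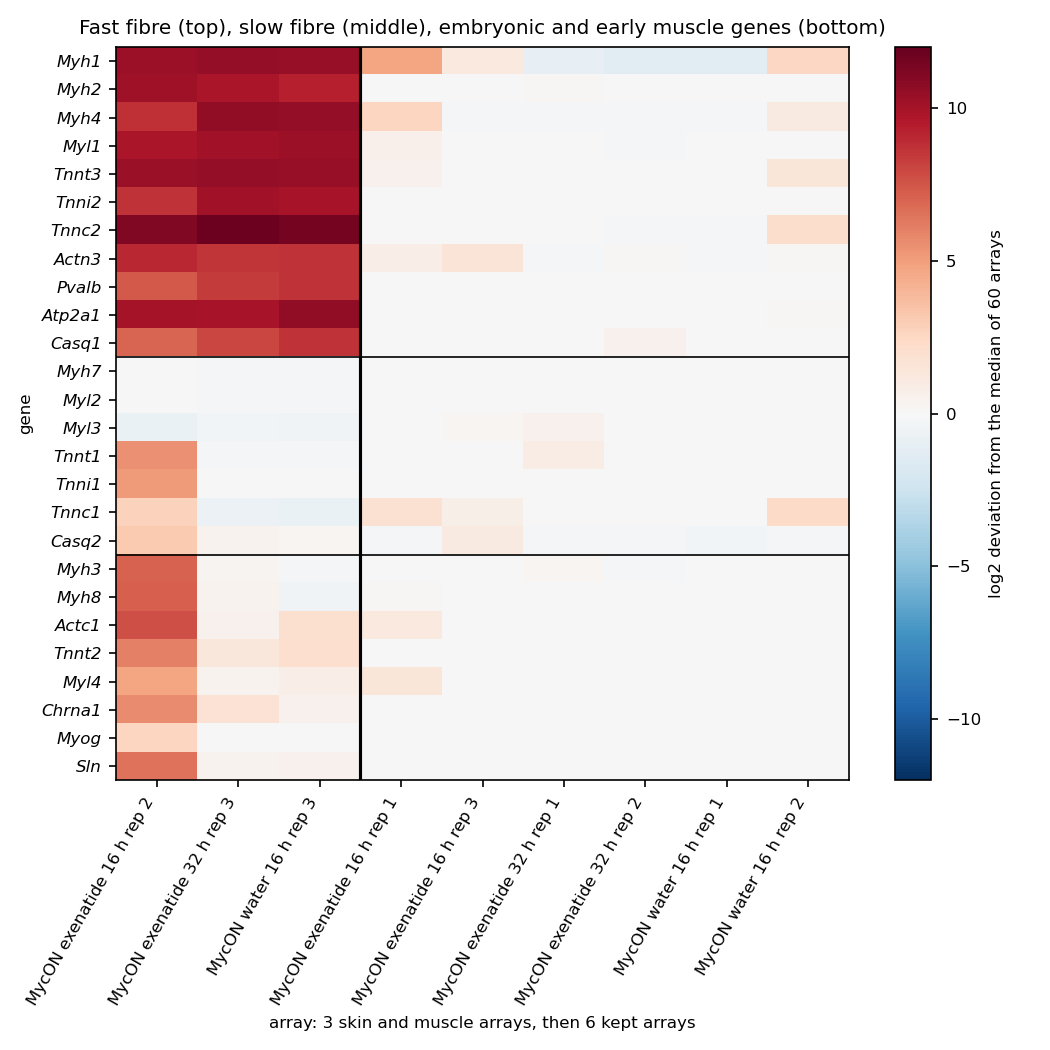
Heat map of log2 deviation from the series median (colour) for 26 muscle genes (y axis) in the 3 skin and muscle arrays and the 6 kept arrays (x axis). Fast fibre genes are high in all 3 skin and muscle arrays. Of the slow genes, Myh7 and Myl2 are near 0 in all 9 arrays, while Tnnt1 (5.52) and Tnni1 are high in the exenatide 16 h array alone. The embryonic and early genes at the bottom are highest in the exenatide 16 h array, where Myh3 is at 7.05.

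The exenatide 16 h array differed from the other 2 in immature muscle and activated keratinocyte genes. It stood at least 4-fold above both others for 92 genes and below both for 63, against 20 and 8 for the exenatide 32 h array and 15 and 8 for the water 16 h array. Directly, 260 and 297 genes lay 4-fold apart between it and the others, and 38 between the exenatide 32 h and water 16 h arrays. Myh3, the embryonic myosin, was at 7.05, 0.33 and -0.28 in the skin and muscle arrays, against -0.11 to 0.23 with a median of -0.038 in the kept arrays. Myh8, the perinatal myosin, was at 7.18, 0.39 and -0.40 in the skin and muscle arrays, against -0.088 to 0.16 with a median of -0.017 in the kept arrays. Both were high in the exenatide 16 h array alone. Slow troponins were high there too, with Tnnt1 at 5.52, -0.18 and -0.20 and Tnni1 at 5.08, -0.065 and -0.07 in the skin and muscle arrays, against -0.091 to 0.86 and -0.025 to 0.0081 in the kept arrays. Sln, sarcolipin, an inhibitor of the calcium pump, was at 6.49, 0.47 and 0.52 in the skin and muscle arrays, against -0.033 to 0.035 with a median of -0.0086 in the kept arrays. Chrna1, an acetylcholine receptor chain of the muscle synapse, was at 5.69, 1.69 and 0.54 in the skin and muscle arrays, and Myog, the myogenic factor of differentiating muscle cells, at 2.54, -0.042 and -0.049, against -0.027 to 0.0058 and -0.049 to 0.039 in the kept arrays. In the cardiac list, Actc1, Tnnt2 (6.02, 1.34 and 2.01) and Myl4 (4.76, 0.38 and 0.78), which immature skeletal muscle also expresses, were at least 4-fold above the kept arrays in the exenatide 16 h array, against 1 cardiac gene, Tnnt2, in the water 16 h array and 0 in the exenatide 32 h array. Other muscle genes were lower there: Mylk4, a muscle kinase, was at 3.72, 8.15 and 8.26 in the skin and muscle arrays, against -0.043 to 0.019 with a median of -0.019 in the kept arrays.

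Activated keratinocytes switch on a further keratin set and small proline-rich proteins in wounds and thickened skin. Of 17 such genes, 15 were at least 4-fold higher in the exenatide 16 h array (12.2% of all genes were) and 7 in each of the other 2 (13.4% and 12.1%). In all 3 arrays 6 were, and the median difference of 2.79 ± 2.95 was 0.85 without the exenatide 16 h array. Krt6b was at 11.81, 0.047 and 1.64 in the skin and muscle arrays, against -0.034 to 2.36 with a median of -0.0048 in the kept arrays. Krt16, its usual partner in wounded skin, was at 8.47, 2.77 and 3.98 in the skin and muscle arrays, against -0.034 to 0.022 with a median of -0.0096 in the kept arrays (5.08 ± 2.99). Krt6a, which resting follicles also express, was at 10.67, 8.02 and 8.57 in the skin and muscle arrays, against -0.023 to 0.01 with a median of -0.0098 in the kept arrays, and Krt17, likewise of follicles, was level at 7.29, 7.48 and 7.61, against -0.083 to 0.49 with a median of 0.028 in the kept arrays. Krt6b and Krt16 thus set the exenatide 16 h array apart and Krt17 did not. A Krt6a probe set can also read Krt6b, while the Krt6b probe set was at 0.047 in the exenatide 32 h array, where Krt6a was at 8.02. S100a8, an alarmin of neutrophils and activated epidermis, was at 7.51, -0.016 and 0.55 in the skin and muscle arrays, against 0.41 to 3.76 with a median of 1.68 in the kept arrays, so that 2 of the 3 arrays lay within or near the kept range. Sprr2f was at 7.22, 0.24 and 0.19 in the skin and muscle arrays, against -0.047 to 0.077 with a median of -0.015 in the kept arrays. Outside the list, Lce3a (6.63, -0.083 and -0.057) and Lce3f (7.55, 1.15 and -0.065), envelope genes of wounded skin, and Saa3 (7.34, -0.06 and 0.93), an acute phase protein, were also high in the exenatide 16 h array alone, against at most 0.0004, 0.0081 and 1.33 in the kept arrays.
The other 2 arrays had fewer genes of their own. Against its kept arrays, Fos, an immediate early gene, stood at 7.30 in the exenatide 32 h array, 1.76 in the exenatide 16 h array and 3.34 in the water 16 h array, and its level was 3.35, 6.32 and 5.70 in the skin and muscle arrays, against -1.07 to 3.22 with a median of 0.75 in the kept arrays. Klhl41, a Z disc protein of muscle, was highest in the exenatide 32 h array, at 4.50, 7.88 and 4.26 in the skin and muscle arrays, against -0.10 to 2.07 with a median of 0.089 in the kept arrays. In the water 16 h array Ighm, the IgM heavy chain, was highest, at 5.32, 4.39 and 6.72 in the skin and muscle arrays, against -0.083 to 2.96 with a median of -0.044 in the kept arrays.

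**Figure D4:**
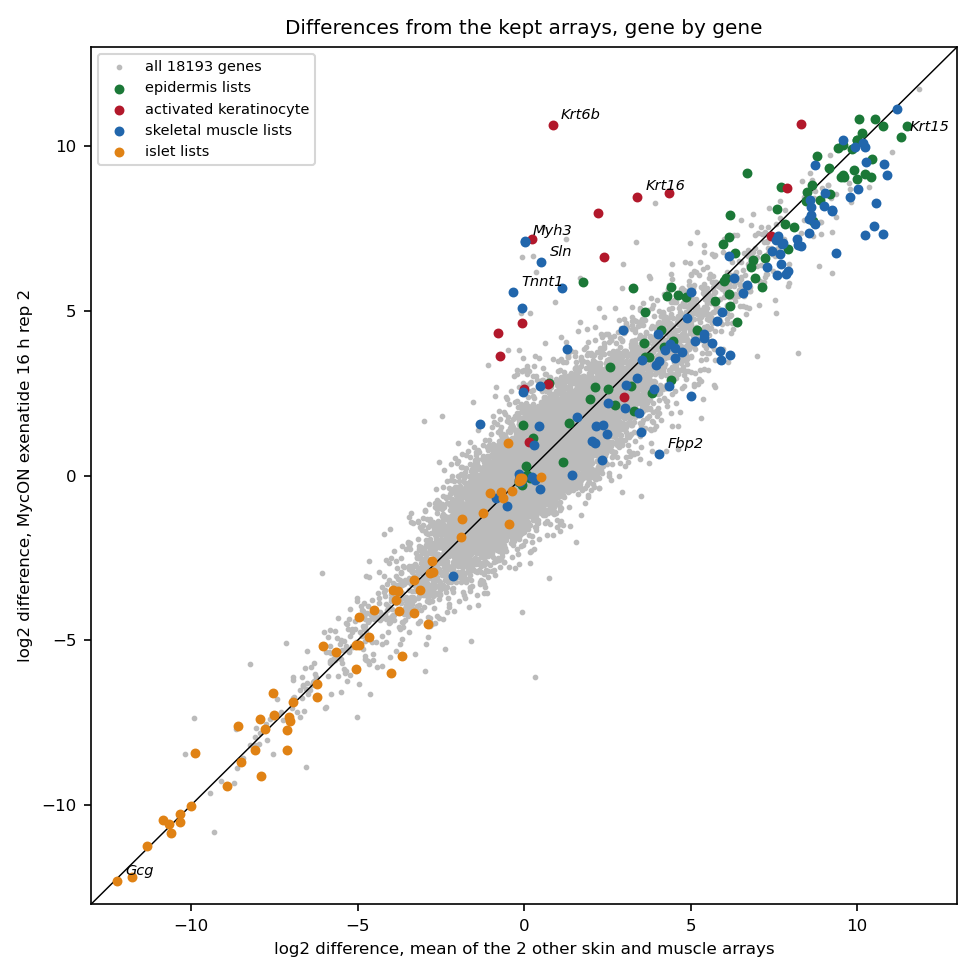
Log2 difference from the kept arrays in the exenatide 16 h array (y axis) against the mean of the exenatide 32 h and water 16 h arrays (x axis) for 18193 genes (grey), with list genes in colour and the line of equality. Most genes lie along the line, while the activated keratinocyte genes Krt6b and Krt16 and the muscle genes Myh3, Sln and Tnnt1 lie far above it and Fbp2 below it.

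Genes of body position were read in the 3 arrays. Of 33 Hox genes, which mark position along the body axis, 5 (15.2%) were higher and 0 lower, against 8.53% and 3.31% of all genes. Hoxa9 was at 7.30, 7.12 and 6.70 in the skin and muscle arrays, against -0.032 to 0.031 with a median of -0.017 in the kept arrays (7.05 ± 0.29). Another Hoxa9 probe set had a difference of -0.059, so its probe sets disagreed. Hoxc8 (5.12 ± 0.31), Hoxd8 (4.17 ± 0.49), Hoxa5 (3.06 ± 0.51) and Hoxc5 (2.82 ± 0.18) were higher too, and all 5 were similar in the 3 arrays. Genes of the limb ends and tail lay near 0, with Hoxa13 at -0.092, -0.15 and -0.099 and Hoxd13 at -0.086, -0.12 and -0.086 in the skin and muscle arrays, against -0.027 to 0.0068 and -0.024 to 0.05 in the kept arrays. The same held for Tbx5 (-0.15, -0.19 and -0.19), of the forelimb, and Pitx1 (-0.04, -0.10 and -0.11), of the hindlimb, against -0.015 to 0.031 and -0.063 to 0.092 in the kept arrays. Tbx15, a factor of trunk skin and fast muscle, was at 3.84, 4.68 and 4.28 in the skin and muscle arrays, against -0.10 to 0.0082 with a median of -0.041 in the kept arrays (4.31 ± 0.42), and Prrx1 (5.38 ± 0.70) and Twist1 (3.93 ± 0.58), of connective tissue, were higher. Meis2, which islets express, was lower (-4.59 ± 0.75).

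Islet genes were lower together. Of 61 genes in 4 islet lists, 47 were at least 4-fold lower in all 3 skin and muscle arrays and 0 higher (background 3.31% and 8.53%), with a median difference of -5.02 ± 0.24. Ins2, insulin, was at -11.47, -11.80 and -10.99 in the skin and muscle arrays, against 0.011 to 0.81 with a median of 0.59 in the kept arrays, a difference of -11.91 ± 0.44. Gcg, glucagon of alpha cells, was at -12.27, -12.30 and -11.79 in the skin and muscle arrays, against -0.30 to 0.37 with a median of 0.19 in the kept arrays (-12.25 ± 0.39). Sst, somatostatin of delta cells, was at -7.50, -7.08 and -7.52 in the skin and muscle arrays, against -1.54 to 2.39 with a median of 1.00 in the kept arrays (-8.29 ± 0.89), and Ppy, of PP cells, had a difference of -8.57 ± 0.75. Each of these hormones was similarly low in the 3 arrays and below all 6 kept arrays, as were 44.2% of all genes. Of 9 hormone genes 7 were lower, and the exceptions Ghrl (-0.14, -0.18 and -0.15, kept arrays -0.025 to 0.05) and Nnat were close to the kept arrays. Ins1 and Mafa were not analysed here.

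Transcription factors of endocrine cells were lower in 12 of 13 cases (median difference -5.32 ± 0.39). Pdx1, which beta cells need, was at -6.15, -6.09 and -6.28 in the skin and muscle arrays, against -0.27 to 0.62 with a median of 0.059 in the kept arrays (-6.24 ± 0.22). Neurod1 (-8.16 ± 0.80), Insm1 (-7.75 ± 0.46), Nkx2-2 (-6.38 ± 0.54) and Isl1 (-5.32 ± 0.50) were lower as well, and Hhex, a delta cell factor also found in other tissues, was not (0.012 ± 0.96). Granule and exocytosis genes were lower in 22 of 25 cases (median difference -5.55 ± 0.66). Chga, chromogranin A of the granule core, was at -10.56, -10.56 and -10.53 in the skin and muscle arrays, against -0.44 to 0.41 with a median of 0.18 in the kept arrays (-10.67 ± 0.22). Slc30a8, the zinc transporter of insulin granules (-7.44 ± 0.16), and Pcsk1, a prohormone protease (-3.69 ± 0.25), were lower, while Cpe, carboxypeptidase E, had a smaller difference of -1.67 ± 0.33. Outside the list, 3 of 16 synaptotagmins were lower, Syt7 (-8.04 ± 0.11), the calcium sensor of insulin release, Syt13 (-7.31 ± 0.54) and Syt4 (-6.44 ± 0.23). Among genes of glucose sensing 6 of 14 were lower, with Slc2a2, the glucose transporter of mouse beta cells, at -9.44, -9.35 and -8.49 in the skin and muscle arrays, against -0.37 to 0.42 with a median of 0.0016 in the kept arrays (-9.10 ± 0.34), and Abcc8, the sulphonylurea receptor, at a difference of -4.74 ± 0.14. The receptors for the injected drug's family were flat: Glp1r was at -0.085, -0.12 and -0.065 and Gipr at -0.076, -0.10 and -0.11 in the skin and muscle arrays, against -0.034 to 0.0059 and -0.016 to 0.096 in the kept arrays, so no level could be read for them.

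The promoter of Gcg is shown as the counterpart of Lor, since Gcg had the largest difference downward. The window is chr2:62483604-62483903 on the minus strand, written along the gene (RefSeq, GRCm38.p6), and capitals mark TATAAA on either strand.
Gcg: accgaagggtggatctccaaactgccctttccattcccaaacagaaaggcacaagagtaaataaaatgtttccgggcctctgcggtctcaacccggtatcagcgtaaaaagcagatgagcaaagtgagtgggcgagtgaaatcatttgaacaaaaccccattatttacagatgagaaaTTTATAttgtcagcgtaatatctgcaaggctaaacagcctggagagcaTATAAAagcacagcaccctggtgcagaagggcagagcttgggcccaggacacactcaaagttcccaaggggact
TATAAA was held by 8.16% of 49 promoters of the islet list genes, CANNTG by 65.3% and TGANTCA by 4.08%, against 9.87%, 67.0% and 6.33% of all promoters.

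Acinar enzymes, the digestive products of the tissue around the islets, were lower for 13 of 25 genes (median difference -2.36 ± 0.52) and 0 were higher. Cela3b, an elastase, was at -8.94, -8.66 and -8.60 in the skin and muscle arrays, against -0.99 to 2.43 with a median of 0.78 in the kept arrays (-9.49 ± 0.41). Clps, colipase, was at -8.42, -8.44 and -8.27 in the skin and muscle arrays, against -1.06 to 2.35 with a median of 0.84 in the kept arrays (-9.15 ± 0.22). Both spread over more than 3 log2 units among the kept arrays.

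MYC and the cell cycle were looked at because all 9 arrays were MycON. Myc was at 1.56, 3.06 and 3.14 in the skin and muscle arrays, against -0.059 to 0.0079 with a median of -0.023 in the kept arrays (2.61 ± 0.90), below 4-fold in the exenatide 16 h array, and whether this probe set reads the fusion gene is not given in the sources used here. Of 15 genes listed as induced by MYC in islets, 1 was higher, the lectin gene Lgals3 that macrophages also express (2.89 ± 0.33), and 1 lower, Ppat of purine synthesis (-2.52 ± 0.68). Each is 6.67% of the list, against 8.53% of all genes higher and 3.31% lower, and the list is too short to set against these shares. The mean level of the mitosis list was 1.74, 0.27 and 0.20 in the exenatide 16 h, exenatide 32 h and water 16 h skin and muscle arrays, against 0.62 and 3.00, 0.063 and 0.12, and 4.38 and 1.99 in their kept arrays. The water 16 h array thus lay 4-fold below its kept arrays for 15 of 19 mitosis genes, where those kept arrays were high, while the exenatide 16 h and exenatide 32 h arrays did so for 0 (background 5.66%, 5.43% and 5.26% of all genes lower in these 3 arrays). Of 28 replication genes 1 was lower in all 3 arrays, Mcm2 (-2.36 ± 0.23), a share of 3.57% near the 3.31% of all genes. Common reference genes did not stay level, with Actb (2.69 ± 0.51), B2m (3.32 ± 0.07) and Ywhaz (2.79 ± 0.79) higher and Rplp0 (0.19 ± 0.16) and Eef1a1 (0.12 ± 0.19) near 0.

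A few arrays elsewhere in the series stood slightly high in the same lists. The mean level of the 98 epidermis genes was 5.43 to 6.22 in the skin and muscle arrays, against -0.059 to 0.958 in the 51 arrays outside the 9, and that of the 111 muscle genes 4.68 to 4.88, against -0.13 to 0.635 in those 51. MycOFF exenatide 16 h replicate 3 (0.958 and 0.635), MycON water 32 h replicate 1 (0.671 and 0.540) and MycOFF water 72 h replicate 3 (0.649 and 0.431) were highest in both lists, and only MycON water 32 h replicate 1 of these was left out by the submitters. In MycOFF exenatide 16 h replicate 3, a kept array, Lor was at 5.69, Tnnc2 at 6.17, Acta1 at 4.93 and Krt14 at 1.76. In MycOFF water 72 h replicate 3, also kept, Tnnc2 was at 6.27, Acta1 at 4.30 and Krt14 at 3.72. Across arrays the means of both lists moved together, with Pearson's r of 0.895 and Spearman's rho of 0.787 over the 51 arrays, 0.881 and 0.821 over the 52 kept arrays, and 0.781 and 0.799 over the 50 left when the 2 kept arrays highest in epidermis were removed. These are descriptions, since the arrays share treatments, array scaling and the centring on 1 median.

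**Figure D5:**
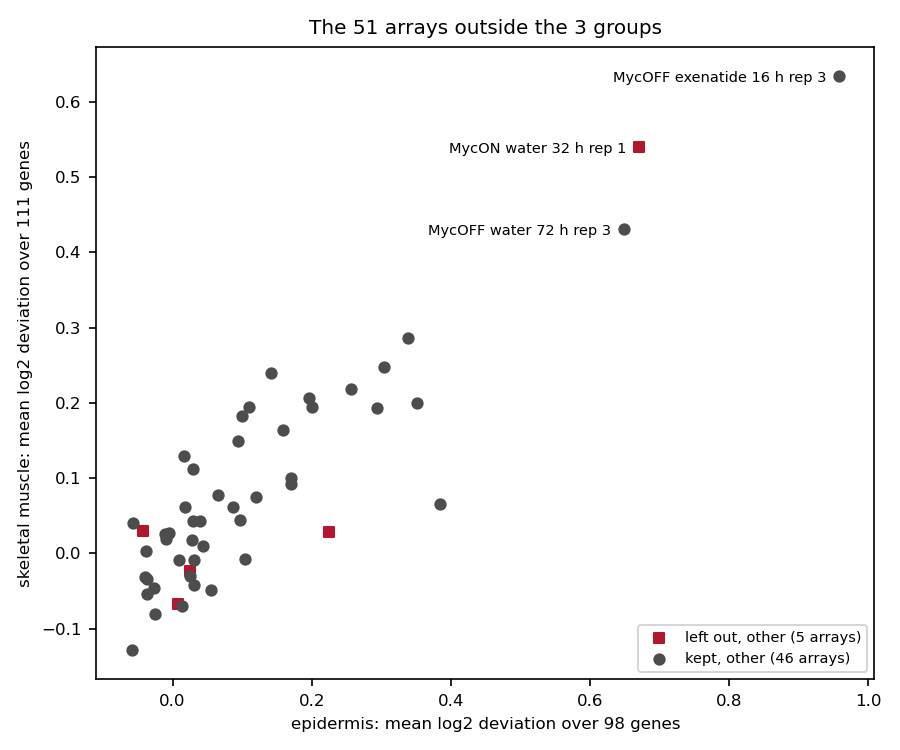
Mean log2 deviation of the 111 skeletal muscle genes (y axis) against that of the 98 epidermis genes (x axis) in the 51 arrays outside the 3 groups, with the 5 other arrays left out as squares and the 46 other kept arrays as circles. Most arrays lie near 0 on both axes, and the 3 named arrays are highest on both.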

How the data were processed

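Expression of 45101 probe sets was measured on 60 Affymetrix arrays of 20 groups. The log2 values deposited by the authors are centred for every probe set on the median of the 60 arrays, so absolute levels cannot be read. The centring was found in the values, and base 2 was inferred from their range (-12.30 to 12.76). MAS5 and GCRMA are named, without role or version, per the submitters' processing notes. Of the probe sets, 34945 had 1 symbol, 932 several and 9160 none, and 34741 matched RefSeq (GRCm38.p6). Each of the 18193 genes was read by the probe set with the widest interquartile range over the 9 arrays.

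Differences were computed with Python 3.11.15, pandas 2.3.3 and numpy 2.4.6, figures were drawn with matplotlib 3.10.9, and the steps were tested on simulated data. Genes named are the 20 with the largest mean difference each way, the 8 most particular to each array, members of the 35 lists (595 genes measured, 66 entries not analysed here) and markers of the groups. Families, enzyme pairs and figure genes were chosen after their values were seen. The arrays, members and lists were chosen with earlier results of these data known. Promoters were 300 bases, 250 before and 50 after the start, for 14452 genes. Alternatives changed the probe set choice, threshold, scaling and comparison arrays, and left out arrays. No test was run, since the arrays were chosen by this contrast.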

Additional observations from a re-analysis of the deposited data

Results flagged for a closer look

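The cardiac muscle list stood at a mean of 0.2949 in the kept array MycON exenatide 16 h replicate 1, far from the other 5 kept arrays. This was the case for 1 of 35 lists, and chance places such a value in about 1 of 20 groups. Mitosis genes had a median difference of 0.0284 in MycON exenatide 16 h replicate 2 and of -3.1625 in MycON water 16 h replicate 3, each against its own kept arrays. Genes listed as induced by MYC in islets had one of 0.8256 in MycON exenatide 16 h replicate 2 and of -0.707 in MycON exenatide 32 h replicate 3. Both pairs had opposite signs in single arrays, and the differences between those arrays were not tested.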

How the results depend on the processing

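No paired analysis was possible because no test was run, and replicate numbers do not tie arrays to animals in the labels. The epidermis, muscle and islet medians kept their signs throughout. The counts of genes at least 4-fold higher and lower (1552 and 603) were 1006 and 376 with the mean over a gene's probe sets, 2931 and 1447 at a 2-fold threshold, 864 and 293 at an 8-fold threshold, and 507 and 222 after quantile normalization of the 9 arrays. Leaving out each of the 6 kept arrays in turn gave 1481 to 1562 higher and 569 to 609 lower. Leaving out each of the 3 skin and muscle arrays gave 1656 to 1884 higher and 685 to 703 lower. A gene then has to pass in fewer arrays, which by itself favours higher counts. The median difference of the epidermis lists (5.82) was 4.89 with the mean over probe sets, 3.17 after quantile normalization and 5.68 to 6.02 with an array left out. That of the muscle lists (4.41) was 3.52, 2.66 and 4.29 to 4.88, the highest without MycON exenatide 16 h replicate 2. That of the islet lists (-5.02) was -3.82, -2.71 and -5.10 to -4.90, and -4.65 with probe sets chosen by spread over 60 arrays. Centring each array on its median gave 1632 higher and 562 lower genes, and comparison with all 52 kept arrays 1688 and 656. Of 38 list medians, 34 to 38 kept their sign under each of these settings. The macrophage median (1.79) was -0.30 after quantile normalization. Against all 52 kept arrays the medians of the replication (-0.70), mitosis (-1.07) and MYC-induced (-0.12) lists were 0.37, 0.31 and 0.83, and without MycON water 16 h replicate 3 the mitosis median was 0.023. The other sign changes were in lists whose median lay within 0.12 of 0. The cause of these shifts was not tested.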

Other observations

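Some gene families were looked at after their values were seen, beside the 8.53% of all genes that were higher and the 3.31% that were lower. Of 42 collagen genes 16 were higher in all 3 skin and muscle arrays, and of 73 cytochrome P450 genes 11 were, with 0 lower in both groups. Of 84 potassium channel genes 3 were higher and 7 lower. Of 76 mitochondrial ribosomal protein genes 0 were higher and 1 lower, and of 24 claudins 2 were higher, so these last 3 families gave shares of higher genes near or below that of all genes. Esr1, the oestrogen receptor gene whose product binds 4OHT, was at 4.92, 5.34 and 4.86 in the skin and muscle arrays, against -0.031 to 0.023 with a median of -0.0096 in the 6 kept arrays. Whether its probe set reads the fusion gene is not given in the sources used here.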
